A study of Mus musculus with 18 samples.

Results

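The 10 genes described here are Ephb3, Btnl10, Rnf212, Fhdc1, Plpp1, Pkhd1l1, Fgf2, Osr2, Fads3 and Abcg4. They were taken by symbol from count tables of 25628 genes (experiment 1) and 26903 genes (experiment 2), and all 10 were found in both and passed the filter on low counts in both. They had been chosen by measured values of these data: their log2 rise after knockdown of Spi1 was called in DMSO and was smaller in the presence of entinostat. Those values, all from experiment 2, are therefore given as a description. Every contrast of experiment 2 uses libraries that chose the genes, so calls of the members there describe them and test nothing. The members were proposed with the results of experiment 1 known as well, so its tests are a repeat in separate libraries and not independent evidence.

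RNA was sequenced from 1 line (#763) of TgSpi1 erythroleukemic cells, mouse leukemic erythroid cells of the bone marrow that overexpress the transcription factor SPI1, also called PU.1, and that were grown with EPO. All 6 groups carried the hairpin against Spi1 that doxycycline switches on, and each had 3 libraries, described as biological replicates. In experiment 1, Exp1_NoDox cells had no doxycycline and Exp1_Dox cells had it for 48 h. In experiment 2, NoDox_DMSO and Dox_DMSO cells received DMSO, the vehicle, without and with doxycycline for 48 h. NoDox_Entinostat and Dox_Entinostat cells received 3 µM entinostat for 6 h, again without and with doxycycline for 48 h. Cells given doxycycline without the hairpin were not analysed here, so an effect of doxycycline itself and of the knockdown cannot be told apart.

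SPI1 is an ETS-family transcription factor that drives myeloid and B cell genes, and in mice its overproduction in erythroid precursors blocks their maturation and leads to erythroleukemia. Entinostat inhibits class I histone deacetylases, enzymes that remove acetyl groups from histones and are part of many corepressor complexes. Genes held down by SPI1 would be read as rising after the knockdown, and the 4 groups of experiment 2 ask how that rise relates to deacetylase inhibition.

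The 10 genes are not one pathway. Ephb3 is a receptor tyrosine kinase for ephrin-B ligands, Fgf2 is a fibroblast growth factor, and Btnl10 is a butyrophilin-like membrane protein of the immunoglobulin superfamily. Abcg4 is a membrane transporter that moves sterols out of cells, Fads3 is a fatty acid desaturase family member that acts on sphingoid bases, and Plpp1 removes the phosphate of lipid messengers such as lysophosphatidic acid. Fhdc1 is a formin, a regulator of actin and microtubules, and Pkhd1l1 is a very large membrane protein related to fibrocystin, known in mice from the surface of sensory hair cells. Osr2 is an odd-skipped zinc finger transcription factor of mouse palate and tooth development, and Rnf212 is a RING-finger protein needed for meiotic crossovers in mice.

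Spi1 itself fell on the log2 scale by 1.73 ± 0.10 (SE) with doxycycline in experiment 1 (edgeR quasi-likelihood test, adjusted p = 0.000828), from a mean of 431 to 130 CPM (counts scaled to 1 M per library with TMM factors, as all CPM values here). Its means were 237 and 96.9 CPM in NoDox_DMSO and Dox_DMSO, and 394 and 131 CPM in NoDox_Entinostat and Dox_Entinostat. The libraries of NoDox_Entinostat ran from 221 to 482 CPM and overlapped those of NoDox_DMSO, at 200 to 259 CPM. Spi1 was not called with entinostat alone (log2 fold change 0.74 ± 0.33, edgeR quasi-likelihood test, adjusted p = 0.0813). Totals were 82.7 to 114 M counts per library in experiment 1 and 43.1 to 48.9 M in experiment 2. All 6 erythroid markers tested for the label (Gata1, Klf1, Epor, Tfrc, Alas2 and Slc4a1) were at 1 CPM or more in every group. In experiment 2, Dox_DMSO 1 and NoDox_Entinostat 1 stood apart from the other libraries of their groups: 9 and 8 of the 10 genes lay below the group mean in them, by a median of -0.37 and -0.28 on the log2 scale. In bulk RNA, a change in the number of cells that express a gene and a change in RNA per cell cannot be told apart.

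All 10 genes lie at separate places of the mm10 genome, on 8 chromosomes. Ephb3 is at chr16:21204755-21223305, Btnl10 at chr11:58917908-58927158, Pkhd1l1 at chr15:44457494-44601369, Osr2 at chr15:35296098-35303305, Fads3 at chr19:10041569-10060110, Plpp1 at chr13:112800792-112867894 and Fgf2 at chr3:37348346-37410108, all on the forward strand. Rnf212 (chr5:108729290-108774982), Fhdc1 (chr3:84442198-84480429) and Abcg4 (chr9:44273188-44288615) are on the reverse strand. The library kit did not keep strand, and 2 genes share exon sequence with an opposite gene: Plpp1 shares 452 bases with Mtrex, and Fgf2 shares 640 bases with Nudt6, as well as 255 bases with the transcript Gm43439 on its own strand. Reads in these stretches cannot be assigned, so the values of Plpp1 and Fgf2 are uncertain to that extent. Mtrex did not move with Plpp1: its group means were 269, 277, 152 and 93.7 CPM in NoDox_DMSO, Dox_DMSO, NoDox_Entinostat and Dox_Entinostat. Nudt6 had means of 11.9, 12.1, 16.8 and 18.2 CPM in the same order.

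RefSeq promoters, from 250 bases before to 50 after a start site (GRCm38.p6), were at hand for 6 of the 10 genes in 8 windows. They were searched on both strands for words that erythroid GATA factors are known to bind. These were AGATAA, or TGATAA with the other permitted first base, and the forms of both that end in G, which read AGATAG and, with the other first base, TGATAG. The search also took the word AGGAAGT for ETS factors such as SPI1, and for the erythroid KLF factors the word CCACACC. Btnl10 and Fhdc1 held a GATA word, and no window held the ETS or the KLF word in these letters. Of all 32851 promoters in the table, 29.8% held a GATA word, 9.35% the ETS word and 7.58% the KLF word. Among the promoters of genes that rose in experiment 1 the shares were 19.5% for GATA and 5.32% for ETS, and among those of all genes tested there they were 19.5% and 9.01%. The sequences of Btnl10 (chr11:58917658-58917957, + strand) and Fhdc1 (chr3:84479442-84479741, - strand) are shown because they hold the matches, and that of Ephb3 (chr16:21204545-21204844, + strand) because its levels lay closest to the mean of the 10 genes. Capitals mark GATA words, and in the Btnl10 sequence they are read on the opposite strand.
Btnl10: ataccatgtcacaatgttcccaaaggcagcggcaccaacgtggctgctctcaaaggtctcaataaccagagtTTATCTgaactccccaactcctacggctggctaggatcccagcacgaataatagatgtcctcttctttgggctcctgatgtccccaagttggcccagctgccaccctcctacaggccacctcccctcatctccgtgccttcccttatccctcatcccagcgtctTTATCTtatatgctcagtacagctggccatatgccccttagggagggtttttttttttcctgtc
Fhdc1: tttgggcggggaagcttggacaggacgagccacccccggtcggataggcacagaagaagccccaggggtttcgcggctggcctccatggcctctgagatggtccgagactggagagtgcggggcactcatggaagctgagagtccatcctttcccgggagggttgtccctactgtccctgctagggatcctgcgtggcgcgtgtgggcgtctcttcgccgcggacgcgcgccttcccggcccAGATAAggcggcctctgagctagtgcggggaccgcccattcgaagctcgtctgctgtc
Ephb3: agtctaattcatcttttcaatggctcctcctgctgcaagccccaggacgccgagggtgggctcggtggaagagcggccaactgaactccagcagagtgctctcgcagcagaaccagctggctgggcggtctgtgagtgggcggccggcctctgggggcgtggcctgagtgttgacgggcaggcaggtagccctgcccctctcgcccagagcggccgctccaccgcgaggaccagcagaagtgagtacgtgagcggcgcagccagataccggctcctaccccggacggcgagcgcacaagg
The Btnl10 words begin at positions -178 and -14 from the start site, and the second also falls in the other Btnl10 window. The Fhdc1 word begins at position -8. The Btnl10 windows hold 6 CpG pairs each and the windows of the other 5 genes 22 to 31, against a median of 21 for genes tested in experiment 1. A match of letters is a description and not a binding site.

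In experiment 1, all 10 genes rose with doxycycline, and for all 10 the 3 treated libraries lay above the 3 untreated ones. Across all genes tested, 5.26% were called higher, 8.36% lower, and 15.3% had groups that did not overlap in that direction. The log2 fold changes ran from 1.63 to 4.79 with a median of 2.81, against a median of 0.02 over all genes, and adjusted p-values ran from 0.000882 to 0.00860 (edgeR quasi-likelihood test). Rnf212 had 0.120, 0.126 and 0.0564 CPM without doxycycline and 3.34, 2.37 and 2.85 CPM with it, with a fitted log2 difference of 4.79 ± 0.30 (SE). Ephb3 stood at 0.683, 1.35 and 0.935 CPM and, after doxycycline, at 19.2, 16.6 and 18.2 CPM, a rise of 4.18 ± 0.26 on the log2 scale. Without doxycycline Rnf212 had only 29 counts over the 3 libraries, whereas Ephb3 had 290.

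Btnl10 was next, with 2.17, 4.21 and 2.39 CPM without doxycycline and 46.1, 42.1 and 41.3 CPM with it (log2 fold change 3.88 ± 0.28). Pkhd1l1 rose from a mean of 2.15 ± 0.45 (SD, n = 3) to 18.7 ± 5.04 CPM, Plpp1 from 1.81 ± 1.06 to 13.8 ± 3.67 CPM and Fhdc1 from 2.53 ± 0.79 to 16.5 ± 1.79 CPM. The highest levels with doxycycline belonged to Fads3, with 8.84, 20 and 9.46 CPM before and 64.8, 83 and 67.6 CPM after it. Per kilobase of exon, Fads3 was also the highest of the 10 in Exp1_Dox, at 18.9 CPM per kb. Abcg4 rose from 9.31 ± 1.57 to 39.6 ± 6.08 CPM, and Osr2 from 0.685 ± 0.121 to 4.28 ± 0.71 CPM. Fgf2, the lowest with doxycycline, had 0.419, 0.305 and 0.282 CPM without it and 1.06, 0.997 and 1.05 CPM with it, with the smallest fold (1.63 ± 0.19). The call of Plpp1 was lost without Exp1_NoDox 3 (edgeR quasi-likelihood test, adjusted p = 0.0503) and kept when any other library was left out. Without Exp1_NoDox 3 the count of all genes called higher also fell, from 727 to 197. The other 9 genes kept their calls. When the replicate number entered the fit as a block, all 10 genes were still called, but 3611 genes were called higher in all, against 727 without the block.

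**Figure D1:**
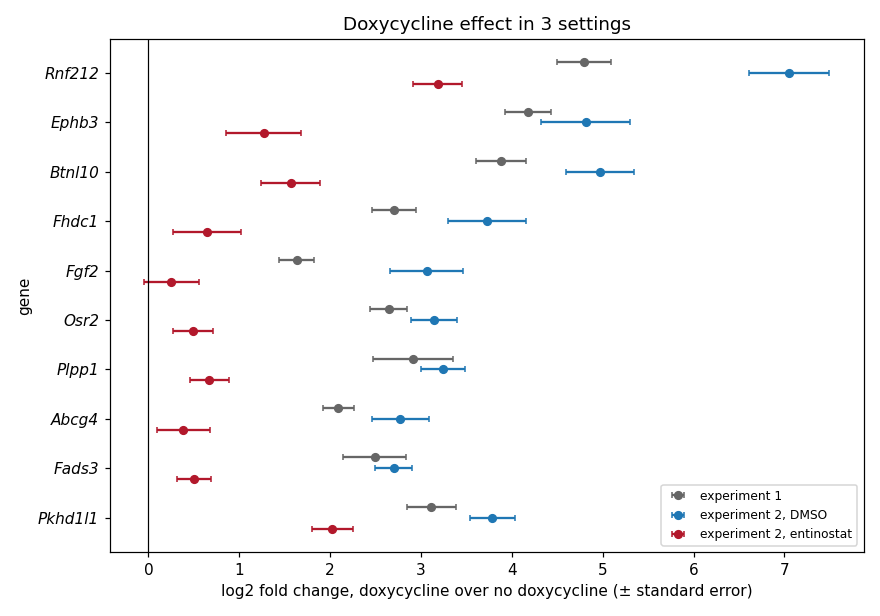
The log2 fold change of each gene with doxycycline (points, with the standard error as bars) in experiment 1, in DMSO and in entinostat, with genes ordered by their interaction. The points for entinostat lie between 0.25 and 3.18 and those for DMSO between 2.70 and 7.05, and within each gene the entinostat point is the lowest.

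In experiment 2 the rise with doxycycline in DMSO was seen again for all 10 genes, which is part of how they were chosen. All 10 were called higher, where 3.77% of all genes were and 5.53% were called lower, with log2 fold changes from 2.70 to 7.05 and a median of 3.48. Entinostat alone also put all 10 genes above their level in NoDox_DMSO, with no overlap of libraries. All 10 were called higher there too, with log2 fold changes from 1.36 to 6.08 and a median of 3.35, against a median of 0.07 over all genes. This contrast enters the interaction that chose the genes, so these calls describe the choice and test nothing. That call was common, since 30.3% of all genes were called higher with entinostat alone and 33.8% had groups that did not overlap in that direction. Adding doxycycline to entinostat was called higher for 5 genes (Ephb3, Btnl10, Rnf212, Plpp1 and Pkhd1l1) where 8.96% of all genes were called higher and 15.1% lower. The log2 fold changes of that step ran from 0.25 to 3.18 with a median of 0.66. The control level of Rnf212 was close to 0, so its fitted folds depend on the fit. Without it the medians were 3.24 for doxycycline in DMSO, 2.99 for entinostat alone and 0.64 for doxycycline in entinostat.

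**Figure D2:**
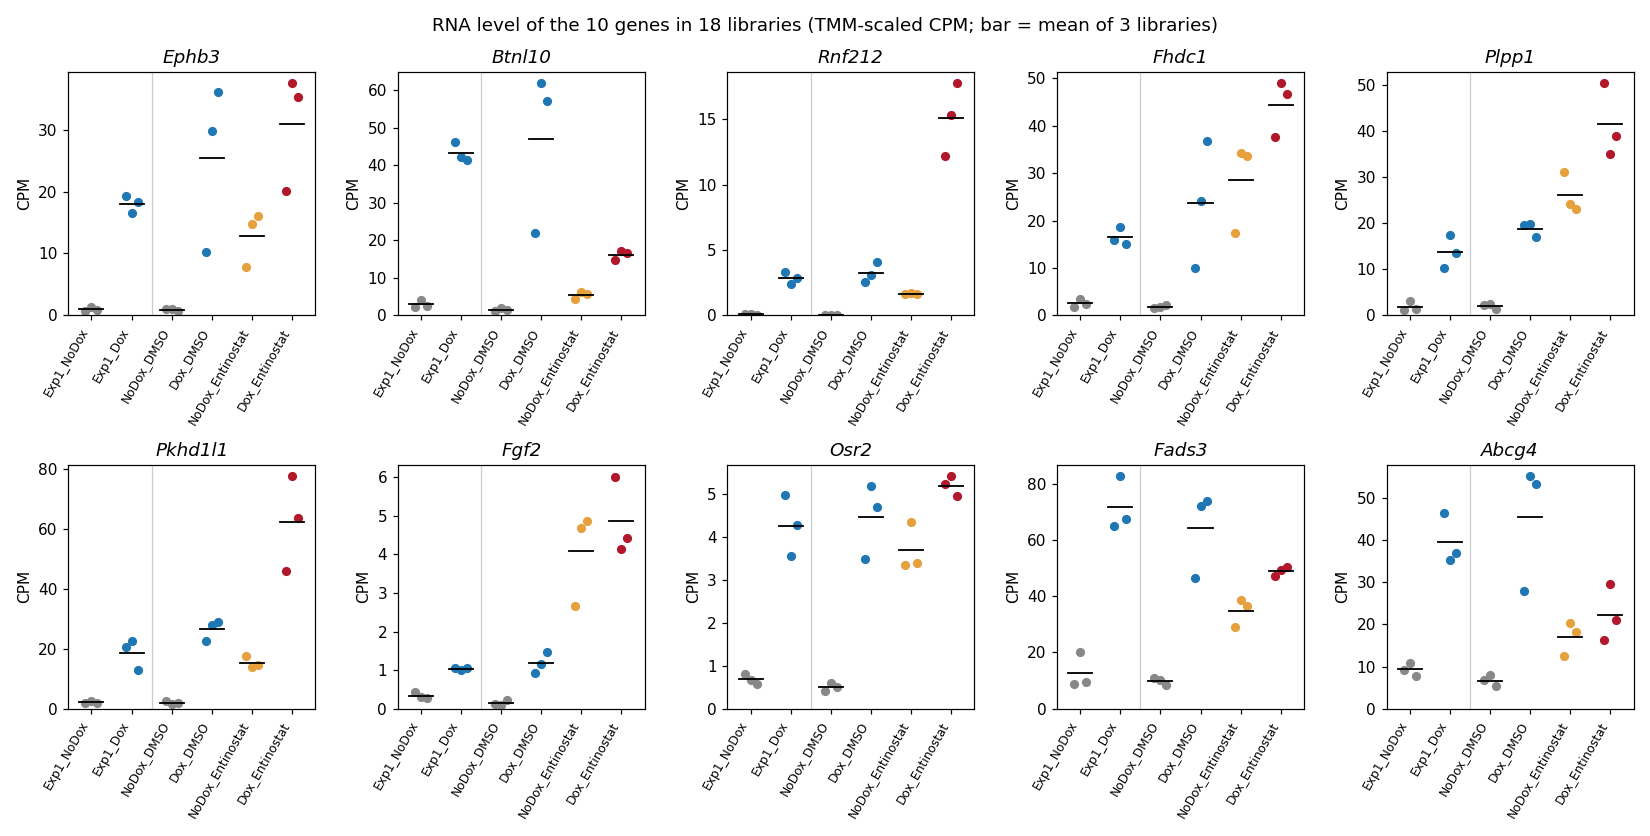
TMM-scaled CPM (vertical axis, from 0) of each gene in each of the 18 libraries, by group, with a bar at the mean of 3 libraries; the first pair of groups is experiment 1. Within experiment 2 every gene is lowest in NoDox_DMSO, and in Dox_Entinostat Btnl10 and Abcg4 have means of 16.2 and 22.3 CPM, under their means of 47.0 and 45.6 CPM in Dox_DMSO, whereas Rnf212 and Pkhd1l1 have their highest values.

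The surface receptor and ligand genes differed from each other. Ephb3 had 0.966, 1.06 and 0.676 CPM in NoDox_DMSO and 10.2, 29.8 and 36.1 CPM in Dox_DMSO. With entinostat it had 7.77, 14.7 and 16.0 CPM without doxycycline and 20.1, 37.5 and 35.3 CPM with it. Every treated library lay above every control, as was so in DMSO for 11.5% of all genes, but the level with both agents overlapped that with doxycycline alone. The lowest value of each treated group came from the library numbered 1.

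Btnl10 showed the clearest loss of level. It had 1.24, 1.91 and 1.35 CPM in NoDox_DMSO and 22, 61.9 and 57.3 CPM in Dox_DMSO. Entinostat alone gave 4.26, 6.34 and 5.80 CPM, and both agents gave 14.6, 17.2 and 16.7 CPM. All 3 libraries with both agents lay below all 3 with doxycycline alone, and Btnl10 was the only one of the 10 genes for which that held. The ratio of the group means was 0.344.

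Fgf2 behaved differently, with entinostat alone giving more RNA than doxycycline alone. It had 0.112, 0.0869 and 0.218 CPM in NoDox_DMSO, from counts of 5, 4 and 10, and 0.933, 1.15 and 1.46 CPM in Dox_DMSO. In NoDox_Entinostat it had 2.67, 4.70 and 4.87 CPM and in Dox_Entinostat 6.02, 4.14 and 4.43 CPM. Doxycycline had no separable effect on top of entinostat: those groups overlapped, and the log2 fold change was 0.25 ± 0.30 (SE). Per kilobase, Fgf2 was the lowest of the 10 genes with doxycycline alone and with both agents.

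Among the lipid and sterol genes, Abcg4 and Fads3 had smaller mean levels with both agents than with doxycycline alone. Abcg4 had 6.88, 7.88 and 5.26 CPM in NoDox_DMSO, 27.9, 55.4 and 53.4 CPM in Dox_DMSO, 12.6, 20.4 and 18.2 CPM in NoDox_Entinostat and 16.2, 29.6 and 21.2 CPM in Dox_Entinostat. Its values with both agents overlapped those with entinostat alone, and 1 of them, 29.6 CPM, lay above the lowest with doxycycline alone. Fads3 had 10.9, 10.4 and 8.47 CPM in NoDox_DMSO and 46.6, 72.2 and 73.9 CPM in Dox_DMSO. It had 28.9, 38.5 and 36.4 CPM with entinostat alone and 47.3, 49.3 and 50.3 CPM with both. Here too the overlap with doxycycline alone came from the single low library Dox_DMSO 1.

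Plpp1 went the other way. It had 2.16, 2.48 and 1.35 CPM in NoDox_DMSO, 19.7, 19.8 and 17.1 CPM in Dox_DMSO and 31.1, 24.3 and 23.0 CPM in NoDox_Entinostat. Both agents gave 50.5, 35.0 and 39.1 CPM, above every library with either agent alone. Per kilobase it was the highest of the 10 genes with entinostat alone (14.9 CPM per kb) and with both agents (23.7 CPM per kb), whereas Fads3 was the highest in DMSO with doxycycline (16.9 CPM per kb).

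Fhdc1, the formin, had 1.46, 1.69 and 2.20 CPM in NoDox_DMSO and a wide spread in Dox_DMSO, at 10.1, 24.1 and 36.8 CPM. Entinostat alone gave 17.3, 34.3 and 33.7 CPM, which overlapped doxycycline alone, and both agents gave 37.7, 49 and 46.7 CPM, above all others. Osr2 was low throughout, at 0.405 to 0.608 CPM in NoDox_DMSO, 3.49 to 5.21 CPM in Dox_DMSO, 3.36 to 4.35 CPM in NoDox_Entinostat and 4.95 to 5.43 CPM in Dox_Entinostat. With either agent alone Osr2 reached a similar range, and with both agents it stayed within reach of doxycycline alone.

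Like Plpp1 and Fhdc1, Pkhd1l1 and Rnf212 reached levels with both agents that neither agent gave alone. Pkhd1l1 had 2.47, 1.5 and 1.81 CPM in NoDox_DMSO, 22.7, 28.0 and 29.0 CPM in Dox_DMSO, 17.6, 14.0 and 14.5 CPM in NoDox_Entinostat and 46.0, 77.6 and 63.7 CPM in Dox_Entinostat. Rnf212 had counts of 0, 1 and 2 in NoDox_DMSO, then 2.58, 3.11 and 4.09 CPM in Dox_DMSO and 1.62, 1.74 and 1.63 CPM in NoDox_Entinostat. With both agents it had 12.2, 15.4 and 17.7 CPM. From summed counts, the ratio of Dox_DMSO to NoDox_DMSO was 150 (95% exact interval 50.8 to 728) and that of NoDox_Entinostat to NoDox_DMSO was 75.6 (25.6 to 369). The ratio of Dox_Entinostat to NoDox_Entinostat was 9.08 (7.98 to 10.4). These intervals cover counting error only.

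With doxycycline present, adding entinostat left 5 genes called higher (Rnf212, Fhdc1, Plpp1, Pkhd1l1 and Fgf2) and 2 called lower (Btnl10 and Abcg4), while Ephb3, Osr2 and Fads3 were called neither way. Over all genes 33.9% were called higher and 29.9% lower in this contrast. The log2 fold changes were 2.21 ± 0.26 (SE) for Rnf212, 2.04 ± 0.32 for Fgf2, 1.23 ± 0.22 for Pkhd1l1, 1.14 ± 0.22 for Plpp1 and 0.91 ± 0.38 for Fhdc1. They were -1.54 ± 0.32 for Btnl10 and -1.03 ± 0.29 for Abcg4. By library values, 5 genes were higher with both agents than with doxycycline alone, 4 overlapped and 1 was lower, where 35.4% of all genes were higher and 30.5% lower without overlap. Against entinostat alone, 8 were higher with both and 2 overlapped (Fgf2 and Abcg4), where 18.3% of all genes were higher without overlap. Of the 10 genes, only Btnl10 and Abcg4 were called lower after entinostat in knockdown cells, with Fads3 lower in its mean only (-0.39 ± 0.19). With 29.9% of all genes called lower and 33.9% higher, these counts describe the members and are no result about them as a group.

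The interaction, which is the log2 fold change with doxycycline in entinostat minus that in DMSO, ran from -3.87 to -1.76 with a median of -2.73, or -2.65 without Rnf212, against -0.09 over all genes. All 10 were called lower because that contrast chose them, where 0.106% of all genes were and 0.166% were called higher, and 16 genes were called lower in all. The member least below 0 was Pkhd1l1 at -1.76 ± 0.32 (SE). The nearest genes outside the threshold were Adam33 (-3.16 ± 0.60) and Dusp8 (-2.88 ± 0.55), at adjusted p-values of 0.0566 and 0.0587, against 0.0391 for the members nearest to it inside (edgeR quasi-likelihood test). These p-values are what the choice rested on, and they and the counts of members that follow describe that choice and test nothing. The 6 other genes inside it were Dmwd, Rhobtb3, Yes1, Cited4, Fam169a and Rhd, and all 16 were also called higher with doxycycline in DMSO. How many genes pass depended on single libraries. Without Dox_DMSO 1 the count of genes called lower was 1619, without NoDox_Entinostat 1 it was 2133 and without both it was 4646, with all 10 members among them each time. The count called higher rose as well, from 25 to 1018, 928 and 3326. The count of members called was 6, 4 and 6 without NoDox_DMSO 1, 2 and 3, and 5 and 5 without Dox_DMSO 2 and 3. It was 5 and 5 without NoDox_Entinostat 2 and 3, and 5, 3 and 5 without Dox_Entinostat 1, 2 and 3. The value of every member stayed below 0 in each of these.

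Entinostat alone had raised each gene by 2.56-fold (Abcg4) to 29.3-fold (Fgf2) in group means, Rnf212 aside. This higher starting level enters the interaction that chose the genes, and its part in the smaller log2 rise was not tested. On the linear scale the added RNA was also compared, as the mean with doxycycline minus the mean without it. This scale was chosen after seeing the data, and the same libraries chose the genes. The differences, gaps and standard errors on it therefore describe the genes and test nothing. The difference was smaller in entinostat than in DMSO for 8 genes and larger for Rnf212 and Pkhd1l1, and ranged from 13.5% (Abcg4) to 415% (Rnf212) of the difference in DMSO. For Abcg4 it was 5.24 ± 4.53 CPM (SE) in entinostat against 38.9 ± 8.88 CPM in DMSO. Btnl10 added 10.7 ± 1.0 CPM against 45.5 ± 12.6 CPM, Fads3 14.4 ± 3.03 against 54.3 ± 8.87 CPM and Osr2 1.5 ± 0.35 against 3.97 ± 0.51 CPM. In these 4 genes the mean added RNA was smaller when entinostat was present, and the gap between the differences was larger than its standard error. The gaps were -33.7 ± 9.97 CPM for Abcg4, -34.8 ± 12.6 CPM for Btnl10, -40.0 ± 9.38 CPM for Fads3 and -2.46 ± 0.62 CPM for Osr2.

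For 4 other genes the added RNA was similar within its error. The difference in entinostat as a share of that in DMSO was 91.1% for Plpp1, 75.1% for Fgf2, 74.0% for Ephb3 and 73.2% for Fhdc1. The gaps were -1.51 ± 5.35, -0.26 ± 0.93, -6.35 ± 9.87 and -5.87 ± 10.1 CPM (SE), each smaller than its standard error, which does not show that they were equal. For Rnf212 the knockdown added 13.4 ± 1.61 CPM in entinostat against 3.24 ± 0.44 CPM in DMSO, and for Pkhd1l1 47.0 ± 9.22 against 24.7 ± 1.97 CPM. These 2 genes gained more RNA from the knockdown in entinostat than in DMSO, with gaps of 10.2 ± 1.67 and 22.4 ± 9.43 CPM, although their log2 rise was smaller.

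Set against the sum of the single effects, the level with both agents was 31.7% for Btnl10, 39.9% for Abcg4, 55.1% for Fads3 and 67.9% for Osr2. It was 83% for Ephb3, 88.3% for Fhdc1, 94.9% for Fgf2 and 96.5% for Plpp1. Pkhd1l1 reached 156% and Rnf212 308% of the sum. Leaving out each library of experiment 2 in turn, and the 2 that stood apart together, moved the count of genes with a smaller difference in entinostat between 6 and 8. Rnf212 and Pkhd1l1 stayed above, at 374% to 476% and 160% to 224%. Btnl10, Fads3, Abcg4 and Osr2 stayed well below, with highest values of 28.1%, 30.1%, 21.3% and 46.0%. The genes in between were less settled: without both libraries that stood apart, Ephb3 was at 48.6%, Fhdc1 at 36.4%, Fgf2 at 6.63% and Plpp1 at 108%. Without Dox_DMSO 3 Fhdc1 was at 104%, and without Dox_Entinostat 2 Fgf2 reached 113% and Plpp1 110%.

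**Figure D3:**
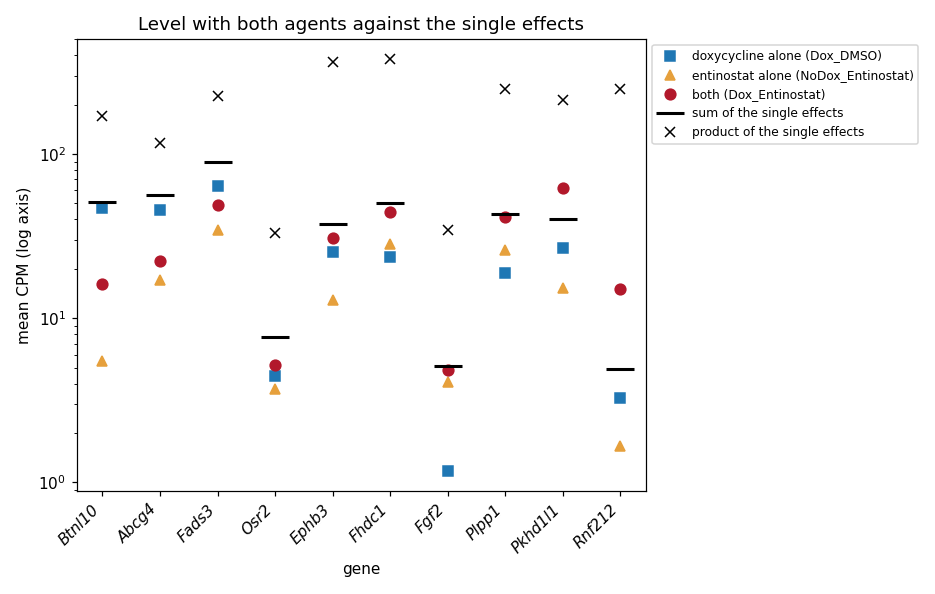
Mean CPM of each gene (log axis) with doxycycline alone, entinostat alone and both, with the sum and the product of the single effects computed from the 4 group means, ordered by the level with both as a share of the sum. Btnl10, at 31.7% of its sum, is at the left, and Pkhd1l1 (156%) and Rnf212 (308%) lie above theirs; all 10 lie below the product, which for Rnf212 rests on 3 counts in the control group.

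Other genes that rose with the knockdown leaned the same way to a smaller degree. Experiment 1, which shares no library with experiment 2, called 716 genes higher that were also tested in experiment 2, the 10 members included. Their median interaction was -0.61, and 85.9% were below 0, against -0.09 and 54.9% over all genes tested. Of the 716, 16 were called lower in the interaction (2.23%) and 0 higher by edgeR, where 0.106% and 0.166% of all genes were. Of these 16, 10 are the members, which this contrast chose. Among the 706 genes that are no member, 6 were called lower (0.85%) and 0 higher. At an unadjusted p under 0.05, 301 of the 716 were lower and 2 higher, the 10 members included. No share of all genes was computed at that threshold, so these counts are a description only. Among the genes that each tool called higher in experiment 1, DESeq2 called 93 of 1126 lower in the interaction and limma-voom 10 of 711. Over all genes these tools called 113 and 17 lower. When the replicate number entered both fits as a block, 3527 genes were called higher in experiment 1 and tested in experiment 2, and their median interaction was -0.29. The count of 16 became 266 without Dox_DMSO 1, 269 without NoDox_Entinostat 1 and 410 without both. It was 10, 5 and 7 without NoDox_DMSO 1, 2 and 3, 6 without either of Dox_DMSO 2 and 3 or of NoDox_Entinostat 2 and 3, and 7, 3 and 6 without Dox_Entinostat 1, 2 and 3. The median stayed between -1.0 and -0.55 when any library of either experiment was left out. Entinostat alone was called higher for 47.6% of the 716 genes and lower for 11.0%, against 30.3% and 16.9% of all genes. Among the 706 of them that are no member the median interaction was -0.59. On the linear scale, 66.2% of those with a positive difference in DMSO had a smaller one in entinostat, and the median share was 47.4%.

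**Figure D4:**
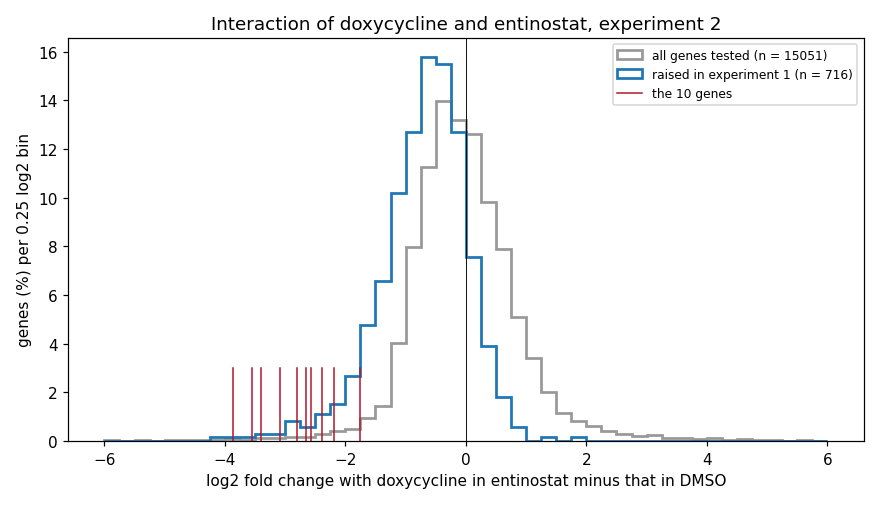
Percent of genes (vertical axis) by interaction log2 fold change in bins of 0.25, for all 15051 genes tested in experiment 2 and for the 716 that rose in experiment 1, with values beyond 6 either way set to 6; short vertical lines mark the 10 genes. The curve of the 716 genes is shifted to the left, with a median of -0.61 against -0.09, and the 10 genes lie in its left tail between -3.87 and -1.76.

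Across the 12 libraries of experiment 2, each member was set against the mean of all 10, with the levels scaled to the same spread. The correlation was highest for Ephb3 (Pearson r = 0.991) and lowest for Fgf2 (0.821), Abcg4 (0.857) and Btnl10 (0.859). The members enter the mean themselves, and the points share the group differences that chose the genes, so these values describe likeness only. The 10 non-member genes most like the mean were Dusp8 (r = 0.986), Mab21l2 (0.982), Fam169a, Dpf3, Yes1, Fam8a1, Hace1, Cpne9, Phlda3 and Usp45 (0.971). In experiment 1, all 10 of these rose with doxycycline, by 0.35 ± 0.08 (SE) on the log2 scale for Fam8a1 to 3.28 ± 0.38 for Dusp8 (edgeR quasi-likelihood test, adjusted p from 0.000882 to 0.0298). Mab21l2 had means of 0.300, 2.86, 1.72 and 3.92 CPM in NoDox_DMSO, Dox_DMSO, NoDox_Entinostat and Dox_Entinostat. Yes1, a SRC-family kinase, had 1.84, 11.0, 8.42 and 17.0 CPM, and Hace1, a ubiquitin ligase, 34.7, 59.5, 52.2 and 68.2 CPM.

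Relatives of the 10 genes were examined by lists drawn from general knowledge, with p-values for single genes adjusted over all genes. Of 8 tested Eph receptors and ephrins other than Ephb3, 1 rose with doxycycline in DMSO: Efna2, an ephrin-A ligand, by 2.0 ± 0.40 (SE, adjusted p = 0.00591), after 2.19 ± 0.27 in experiment 1 (adjusted p = 0.00415). Entinostat alone, with which 30.3% of all genes were called higher, was called higher for 6 of these 8, among them the ligands Efna3 (6.49 ± 0.63) and Efna1 (6.95 ± 0.72). In the interaction edgeR called 0 of the 8, also at an unadjusted p under 0.05. Of 6 other tested FGF ligands and receptors, 2 rose with doxycycline in DMSO, the receptor-like Fgfrl1 (0.88 ± 0.15, adjusted p = 0.00181) and Fgf15 (1.53 ± 0.33, adjusted p = 0.00852). Entinostat alone was called higher for 4 of the 6, among them Fgf9 (4.22 ± 0.42), and lower for Fgfrl1 (-0.63 ± 0.15, adjusted p = 0.00387).

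Of 3 other butyrophilin genes tested, Btn1a1 rose with doxycycline in experiment 1 (1.53 ± 0.12 log2, adjusted p = 0.0012) and in DMSO (1.44 ± 0.27, adjusted p = 0.00383), and entinostat alone was called higher for all 3. Btnl9 moved the other way, falling by 1.75 ± 0.41 with doxycycline in experiment 1 (adjusted p = 0.0376) and by 2.58 ± 0.76 in entinostat (adjusted p = 0.0308). The interaction of Btn1a1 was -1.74 ± 0.37, with an adjusted p of 0.0875. Of 7 other formin genes tested, 4 went against Fhdc1 and fell with doxycycline in experiment 1, in DMSO and in entinostat. They were Fhod1, Fmnl1, Diaph1 and Diaph2, with log2 fold changes in experiment 1 of -1.02 ± 0.19, -2.73 ± 0.51, -0.83 ± 0.20 and -1.13 ± 0.24 (adjusted p from 0.0182 to 0.0414). Daam1, Diaph3 and Inf2 were called neither way in these contrasts. Over all genes 8.36%, 5.53% and 15.1% were called lower. Fmnl1 fell by 3.63 ± 0.82 in DMSO and by 4.59 ± 0.80 in entinostat (adjusted p = 0.0128 and 0.00277).

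Of 4 other ABCG and ABCA transporter genes tested, Abcg2, a red cell efflux transporter, rose with doxycycline in experiment 1 (1.21 ± 0.20 log2, adjusted p = 0.0118). It also rose in DMSO (1.27 ± 0.16, adjusted p = 0.000198) and in entinostat (0.57 ± 0.16, adjusted p = 0.0259). Abca1, a cholesterol efflux transporter, fell with doxycycline in entinostat by 1.81 ± 0.52 (adjusted p = 0.0279). Of 7 other desaturases tested, Fads2 (0.74 ± 0.09) and Fads1 (0.53 ± 0.08), desaturases of polyunsaturated fatty acids, rose in experiment 1, with adjusted p-values of 0.00477 and 0.00938. With doxycycline in DMSO edgeR called 0 of the 7, also at an unadjusted p under 0.05. Entinostat on top of doxycycline was called lower for Fads1 (-1.40 ± 0.26) and Fads2 (-1.75 ± 0.39), and higher for the stearoyl-CoA desaturase Scd4 (1.77 ± 0.38, adjusted p = 0.00152). Of 2 other lipid phosphate phosphatases tested, edgeR called Plpp6 higher (1.18 ± 0.16) and Plpp5 lower (-0.81 ± 0.18) with entinostat alone. No other member of the odd-skipped, fibrocystin and RNF212 list passed the filter on low counts.

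Genes of red cell maturation moved with the same knockdown. Of 20 red cell membrane and surface genes, 11 rose with doxycycline in experiment 1, 13 in DMSO and 7 in entinostat, where 5.26%, 3.77% and 8.96% of all genes did, and 0 fell in any of the 3. Kel, a blood group protein, rose by 1.79 ± 0.16 (SE, log2, adjusted p = 1.51e-05) in DMSO and by 1.2 ± 0.16 in entinostat (adjusted p = 0.000571). The median interaction of the 20 was -1.07, and 1, Rhd, the Rhesus protein, was called lower, where 0.106% of all genes were. At an unadjusted p under 0.05 the count was 13 lower, again with no share of all genes computed, so it is a description only. Of 13 globin and heme synthesis genes, 8 rose in experiment 1, 7 in DMSO and 11 in entinostat, against the same shares of all genes, and their median interaction was 0.03. The difference between these lists was not tested.

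Markers of other blood cells also moved with entinostat. The summed level of 6 mast cell markers was 9.34 to 16.4 CPM in NoDox_DMSO, 5.51 to 12.9 in Dox_DMSO, 47.6 to 140 in NoDox_Entinostat and 38.8 to 84.2 in Dox_Entinostat, with Fcer1a at a mean of 47.8 CPM in NoDox_Entinostat. Of the 6, 4, 2, 5 and 3 were at 1 CPM or more in these groups, and Mcpt8 was at 0 in all but NoDox_DMSO (1 count). The 8 macrophage markers summed to 3.60 to 4.15, 1.68 to 2.70, 13.7 to 17.8 and 3.80 to 5.57 CPM in the same order, with 1, 1, 3 and 2 of the 8 at 1 CPM or more. Of 6 megakaryocyte markers, 5 were counted in experiment 2. They summed to 31.8 to 68.6, 30.3 to 45.5, 83.5 to 125 and 66.6 to 127 CPM in that order, with 4, 3, 4 and 4 at 1 CPM or more. Pf4 (platelet factor 4) made up most of that sum, with means of 28.6, 24.9, 77.8 and 72.3 CPM. Of 4 T cell markers, 3 were counted in experiment 2. Lck alone was at 1 CPM or more, with means of 2.58, 3.71, 9.07 and 9.09 CPM, while Cd3e and Cd3d had at most 21 counts in any of these groups. Of 6 stromal and endothelial markers, 5 were counted in experiment 2. Among them Col1a1 alone reached 1 CPM, with means of 1.77 and 1.53 CPM in the entinostat groups. Of 6 neutrophil and 4 B cell markers, 4 and 3 were counted in experiment 2, and these stayed under 1 CPM. The part of these markers in the levels of the 10 genes was not tested. Of the 6 erythroid defining genes, the transcription factors Gata1, Klf1, Tal1 and Nfe2 and the receptors Epor and Tfrc, all but Tfrc were called lower with entinostat alone and all 6 with entinostat in the presence of doxycycline. In these 2 contrasts 16.9% and 29.9% of all genes were called lower. Klf1 had means of 110, 163, 44.1 and 34.0 CPM in the 4 groups, so entinostat lowered it with and without the knockdown. Unlike Klf1, all 10 genes were called higher with entinostat alone, a contrast that enters their choice, where 30.3% of all genes were. In knockdown cells Btnl10 and Abcg4 were called lower with entinostat, where 29.9% of all genes were. A relation of the 10 genes to Klf1 was not tested.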

How the data were processed

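Polyadenylated RNA of 18 libraries was made into libraries with an unstranded kit, per the labels' protocols. The deposited values are raw counts per gene, 1 table per experiment. The tools were STAR, bcl2fastq 2.17.1.14 and DESeq2 with the mm10 build, per the submitters' processing notes; their roles, the counter and the annotation are not given in the sources used here. The experiment 1 table holds no count under 1, and 3543 genes are at 1 in every library.

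Each experiment was fitted on the whole table with edgeR 4.0.16 (quasi-likelihood, TMM factors, filterByExpr) in R 4.3.3, which kept 13811 and 15051 genes. Tests were two-sided, with Benjamini-Hochberg adjustment and a threshold of 0.05, and the 12 libraries of experiment 2 shared 1 fit. The code was tested on simulated data. The members and lists were chosen with earlier results of these data known. Named genes were the members, Spi1, the 10 genes of at least 1 CPM most correlated with the members' mean, and up to 4 called genes of each list; some genes are not reported here. Genes named beside the interaction threshold were chosen after their values were seen. Positions came from GENCODE M21. Same-number libraries correlated in their deviations at 0.561 or more in experiment 1, above the limit of 0.1 for pairing, although other pairs reached 0.687. In experiment 2 same-number pairs ran from 0.014 to 0.956, the highest being Dox_DMSO 1 with NoDox_Entinostat 1, and other pairs from -0.923 to 0.847. The main fits left out the replicate number, which entered only as the block among the alternatives. Alternatives were other normalizations, filters and tools (DESeq2 1.42.0, limma-voom with limma 3.58.1), the block, the compared groups alone and libraries left out.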

Additional observations from a re-analysis of the deposited data

Results flagged for a closer look

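Each group held 3 libraries, too few to test for a single outlying library. The effect of doxycycline differed between entinostat and DMSO for Rhd, a red cell surface gene that is not among the 10: its interaction was -1.58 ± 0.28 (SE, log2; edgeR quasi-likelihood test, adjusted p = 0.0390). The same contrast differed for the 10 genes, which it had chosen: -3.54 for Ephb3, -3.40 for Btnl10, -3.87 for Rnf212, -3.08 for Fhdc1, -2.57 for Plpp1, -1.76 for Pkhd1l1, -2.81 for Fgf2, -2.65 for Osr2, -2.20 for Fads3 and -2.39 for Abcg4.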

How the results depend on the processing

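The 10 genes were called higher with doxycycline in DMSO and with entinostat alone in every alternative run, and in experiment 1 all 10 or 9 of them were. The count of 5 called higher with doxycycline in entinostat became 3 with library size alone and 8 with the replicate block, and ran from 3 to 6 with 1 library left out. The count of 5 called higher with entinostat in the presence of doxycycline ran from 4 to 5 with 1 library left out. The 10 called in the interaction were 5 with limma-voom, 10 with the replicate block and 3 to 10 with 1 library left out. Of 200 interaction values of single members, 142 stayed on their side of the threshold, 58 no longer passed it and 0 changed sign. Genes raised in experiment 1 and called lower in the interaction numbered 16, the 10 members included. The number was 78 with no filter, 93 with DESeq2, 10 with limma-voom and 98 with the replicate block. It was 3 to 269 with 1 library left out and 410 without both libraries that stood apart. Over all genes, the 25 called higher and 16 lower in the interaction became 67 and 139 with no filter, 122 and 113 with DESeq2, and 73 and 104 with the replicate block. Ephb3 with entinostat in the presence of doxycycline changed sign from 0.29 to -0.10 without both, and ran from -0.10 (without Dox_DMSO 1) to 0.62 with 1 library left out, never past the threshold. The cause was not tested. The call of Fhdc1 in that contrast was near the threshold (adjusted p = 0.0495), and counts of 0 to 10 limit Rnf212 and Fgf2 in NoDox_DMSO.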
